A study of Mus musculus with 8 samples.

Results

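The genes described here were 10 genes of the amino acid and integrated stress response, chosen by name: Atf4, Atf3, Ddit3, Trib3, Chac1 and Sesn2, which encode transcription factors and stress effectors, and Phgdh, Psat1, Shmt2 and Asns, which encode enzymes of serine, glycine and asparagine synthesis. The 10 symbols matched 11 rows among the 55401 genes of the count table, because Ddit3 had a second row. That second row covered 105 bases inside the exons of the main Ddit3 gene, held 0 counts in every library and was not tested. The other 10 rows passed the filter on low counts, together with 17125 genes in all. The RNA was poly(A)-selected and came from R1, a line of mouse embryonic stem cells (ESCs), in which the zinc finger gene Zfp462 was either knocked out or intact. The 4 groups had 2 libraries each: Zfp462 knockout embryoid bodies (EBs), control EBs, knockout ESCs and control ESCs. ESCs of both genotypes grew on gelatin in DMEM with fetal bovine serum, leukaemia inhibitory factor (LIF), GlutaMAX, beta-mercaptoethanol and non-essential amino acids. EBs, floating aggregates in which ESCs differentiate, were made from dissociated ESCs and kept in Petri dishes for 3 days. The sources used here do not give their medium, the number of knockout clones, the edited part of Zfp462 or the origin of the replicate libraries, so that the p-values cover no more than the spread between these libraries.

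In the integrated stress response, kinases that sense amino acid shortage, misfolded protein, haem loss or viral RNA phosphorylate the translation factor eIF2. General translation falls, while the Atf4 mRNA is translated more through upstream open reading frames, so that the level of Atf4 RNA need not follow the level of ATF4 protein. ATF4 binds C/EBP-ATF response elements, often as a dimer with C/EBP proteins, and raises genes for amino acid synthesis, amino acid transport and tRNA charging. Stem cells in rich medium use serine and glycine for folate-bound carbon units, nucleotides and methylation. Protein and eIF2 phosphorylation were not measured in these libraries, which hold RNA levels.

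RefSeq promoter windows, from 250 bases before to 50 bases after an annotated start, were found for all 10 genes, with 11 windows because Psat1 had 2. They were searched on both strands for TGATGNAA, the core of the amino acid response element, and for TGACGTNA, a cAMP response element-like sequence bound by ATF and CREB proteins. TGATGNAA was present in 4 of the 11 windows and in 3.97% of all 32851 windows in the table. TGACGTNA was present in 1 of the 11, that of Atf3, and in 2.93% of all windows, and no match of one motif overlapped a match of the other. The 4 windows with a TGATGNAA match are printed because they carry the element that names the response, with matches in capitals and read 5′ to 3′ along the gene's strand in build GRCm38.p6. The Atf3 window is chr1:191183284-191183583 on the minus strand, the Chac1 window chr2:119350992-119351291 on the plus strand, the Trib3 window chr2:152344011-152344310 on the minus strand and the Asns window chr6:7693160-7693459 on the minus strand.
Atf3: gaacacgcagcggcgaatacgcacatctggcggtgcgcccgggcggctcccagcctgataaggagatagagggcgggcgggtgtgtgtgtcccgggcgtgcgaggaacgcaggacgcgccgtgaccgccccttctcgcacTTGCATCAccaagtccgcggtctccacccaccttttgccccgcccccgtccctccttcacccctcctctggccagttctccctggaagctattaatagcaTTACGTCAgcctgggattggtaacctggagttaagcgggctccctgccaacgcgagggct
Chac1: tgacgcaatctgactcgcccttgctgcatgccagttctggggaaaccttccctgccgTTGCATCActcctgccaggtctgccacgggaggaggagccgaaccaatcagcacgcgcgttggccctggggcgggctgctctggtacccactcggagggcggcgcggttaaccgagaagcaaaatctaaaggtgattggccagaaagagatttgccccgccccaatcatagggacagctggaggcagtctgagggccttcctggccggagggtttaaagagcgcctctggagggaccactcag
Trib3: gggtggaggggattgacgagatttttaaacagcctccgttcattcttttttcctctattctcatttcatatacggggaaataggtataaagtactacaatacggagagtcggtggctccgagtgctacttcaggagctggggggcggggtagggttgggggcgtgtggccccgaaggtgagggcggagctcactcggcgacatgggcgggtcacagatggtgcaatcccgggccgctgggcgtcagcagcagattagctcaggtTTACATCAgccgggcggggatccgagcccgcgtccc
Asns: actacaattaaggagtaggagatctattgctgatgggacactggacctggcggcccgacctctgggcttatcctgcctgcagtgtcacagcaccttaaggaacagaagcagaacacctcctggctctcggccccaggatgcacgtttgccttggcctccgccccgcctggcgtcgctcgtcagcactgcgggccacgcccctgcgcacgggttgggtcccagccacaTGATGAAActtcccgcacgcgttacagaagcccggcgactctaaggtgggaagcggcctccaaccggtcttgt
The Asns match, TGATGAAA at position -23 from the start, read along the gene's strand. The TGATGNAA matches of Atf3 at -110, Chac1 at -193 and Trib3 at 15 read on the opposite strand, as did the TGACGTNA match of Atf3 at -10. A match is a description of the letters and was not tested as a binding site.

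The 8 libraries held 12119763 to 16228426 counts. Zfp462 RNA, the targeted gene, had 102.0 and 102.5 CPM (counts scaled to the library total) in knockout EBs, against 153.5 and 130.3 CPM in control EBs. It had 104.0 and 106.6 CPM in knockout ESCs, against 183.2 and 196.9 CPM in control ESCs. It was lower in the knockout at both stages, and reads remained in every knockout library. Replicate 2 of the knockout ESCs had a trend on GC content: the tenth of genes with the highest GC content lay at a median log2 deviation of -0.54 there, against -0.06 to 0.17 in the other 7 libraries. Replicate 1 of the knockout EBs had a summed level of 1853 CPM for 10 adult liver markers, none of them at 0. The sum was 5.17 CPM in knockout EB replicate 2 and 3.91 to 26.9 CPM in the other 6 libraries. The 26.9 CPM were in control EB replicate 2, where none of the 10 was at 0 either. The 10 extraembryonic endoderm markers were called higher in the knockout at both stages. Of all tested genes, 4.75% were called higher in knockout EBs and 8.3% in knockout ESCs. This list, like the 2-cell-like list below, was chosen with earlier results of these data known. Its summed levels were 6667 and 7404 CPM in knockout EBs, against 3404 and 3550 CPM in control EBs. In ESCs the sums were 12550 and 10490 CPM in the knockout, against 2843 and 2997 CPM in the control. The summed pluripotency markers were at 3497 and 3518 CPM in knockout EBs, against 3445 and 3300 CPM in control EBs. In ESCs they were at 4442 and 4532 CPM in the knockout, against 5794 and 5876 CPM in the control. The 10 2-cell-like markers, genes of the early embryo, were called higher in the knockout at both stages as well. Their sums were 176.8 and 202.0 CPM in knockout EBs, against 26.2 and 32.3 CPM in control EBs, and 376.3 and 483.7 CPM in knockout ESCs, against 99.1 and 103.9 CPM in control ESCs. In bulk RNA, a change in the share of cells of a type and a change in the RNA level per cell cannot be told apart.

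Per kilobase of the gene length given with the counts, the 4 enzyme genes led in knockout EBs, knockout ESCs and control ESCs. In control EBs Sesn2 stood just above Asns. Atf3, Ddit3, Trib3 and Chac1 were the 4 lowest in every group. In knockout EBs, Phgdh was at 66.9 ± 1.22 CPM per kilobase, Shmt2 at 55.3 ± 1.73, Asns at 52.6 ± 3.8 and Psat1 at 36.7 ± 1.44 CPM per kilobase (SD, n = 2 libraries). In control EBs, Phgdh was at 66.4 ± 2.94, Shmt2 at 55.2 ± 2.7, Psat1 at 39.1 ± 0.0404 and Asns at 35.0 ± 3.4 CPM per kilobase. Sesn2 was at 33.1 ± 0.859 CPM per kilobase in knockout EBs and 36.3 ± 0.302 in control EBs, so that Sesn2 and Asns did not differ beyond their SDs in the control. Shmt2 and Asns were apart by less than the sum of their SDs in knockout EBs. In knockout ESCs, Asns led with 94.7 ± 5.82 CPM per kilobase, ahead of Phgdh with 50.4 ± 6.49, Psat1 with 49.6 ± 5.24 and Shmt2 with 39.9 ± 10.4. In control ESCs, Asns led with 86.8 ± 1.39 CPM per kilobase, followed by Psat1 with 57.8 ± 0.122, Phgdh with 54.9 ± 0.288 and Shmt2 with 54.3 ± 0.479. By this measure Asns, which makes asparagine from aspartate and glutamine, stood first of the 10 in ESCs of both genotypes. Phgdh, which takes the committed step of serine synthesis, stood first in EBs. These ranks depend on the gene length used. In CPM not divided by length, control ESCs had 246.1 and 245.4 for Psat1, against 240.0 and 234.7 for Asns. Knockout EBs had 175.7 and 168.1 CPM for Shmt2, against 164.1 and 168.4 CPM for Phgdh. Phgdh, Psat1 and Shmt2 in knockout ESCs, and Phgdh and Shmt2 in control ESCs, did not differ beyond their SDs. Chac1, which encodes an enzyme that degrades glutathione, was the lowest in every group, at 1.80 CPM per kilobase in knockout EBs, 1.79 in control EBs, 1.29 in knockout ESCs and 1.63 in control ESCs.

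**Figure D1:**
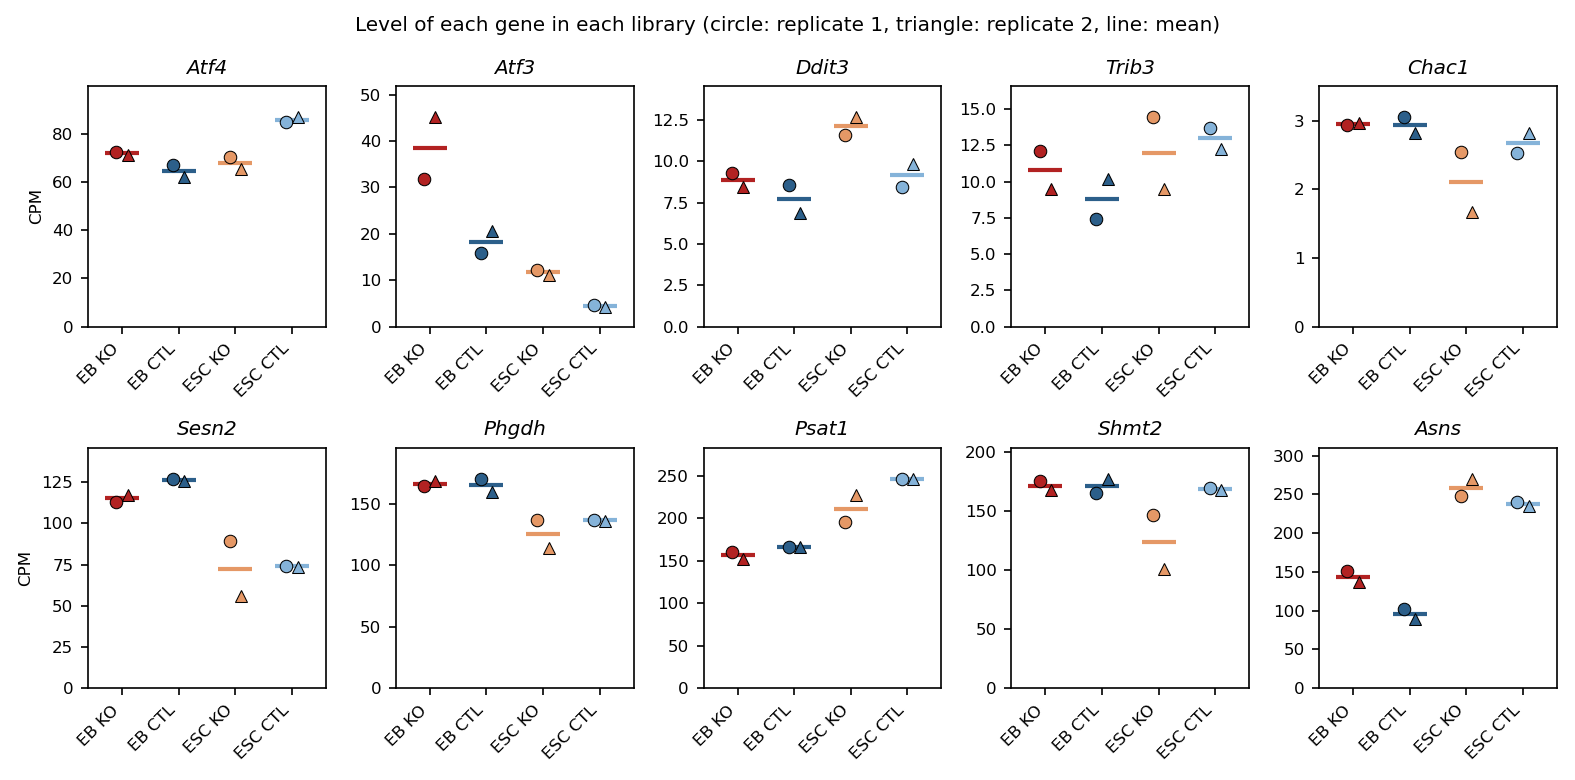
Level of each of the 10 genes in CPM (vertical axis, starting at 0, with its own range per gene) in the 2 libraries of each group, with knockout EBs left of control EBs and knockout ESCs left of control ESCs; circles are replicate 1, triangles replicate 2 and lines group means. Atf3 falls into 4 separate levels, highest in knockout EBs at 31.9 and 45.1 CPM, and Sesn2, Trib3, Chac1 and Shmt2 are spread apart in knockout ESCs.

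In cells cultured as ESCs, the knockout had higher Atf3 RNA and slightly lower Atf4 RNA in edgeR's test, and the other 8 genes did not pass it. DESeq2 also called 2 of the 10, Atf3 and Shmt2, and did not call Atf4 (adjusted p = 0.0636). In edgeR's test, 1 was called higher and 1 lower at an adjusted p below 0.05, where 14.5% of all tested genes were called, 8.3% higher and 6.2% lower. The median log2 fold change of the 10 genes was -0.12, against -0.03 over all tested genes.

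Atf3, a stress-induced transcription factor of the ATF family that can also repress genes, had 12.2 and 11.2 CPM in knockout ESCs, against 4.56 and 4.24 CPM in control ESCs. The groups did not overlap, and replicates lay close together in each. Its log2 fold change was 1.41 ± 0.23 (SE, edgeR adjusted p = 0.00217). Without control ESC replicate 2 the adjusted p was 0.0547, and the log2 fold change lay between 1.34 and 1.48 over the 17 alternatives tried.

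Atf4 had 70.4 and 65.7 CPM in knockout ESCs, against 84.9 and 86.9 CPM in control ESCs. The knockout libraries were both lower than the controls, with a log2 fold change of -0.34 ± 0.09 (edgeR adjusted p = 0.0361). With the GC trend removed, the Atf4 estimate was -0.21 and did not pass (edgeR adjusted p = 0.122). The Atf4 call held under 3 of 17 alternatives, with adjusted p-values between 0.00365 and 0.239 and log2 fold changes between -0.40 and -0.21.

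Ddit3, which encodes the pro-apoptotic factor CHOP, had 11.6 and 12.7 CPM in knockout ESCs, against 8.47 and 9.83 CPM in control ESCs. Both knockout libraries were above both controls, and the estimate of 0.40 ± 0.20 did not pass (adjusted p = 0.225). Ddit3 shares 68 exonic bases with Mars on the opposite strand, which had 2607 to 3694 counts per library, and the sources used here do not give the strand setting of the counting. Trib3, a pseudokinase that feeds back on ATF4 and CHOP, had 14.4 and 9.46 CPM in knockout ESCs, against 13.7 and 12.3 CPM in control ESCs. Its groups overlapped, with the knockout libraries lying on either side of the controls (log2 fold change -0.12 ± 0.25, adjusted p = 0.811). Chac1 had 2.55 and 1.67 CPM in knockout ESCs, against 2.52 and 2.83 CPM in control ESCs, on 23 to 46 counts per library across the 8 libraries. Its groups overlapped, and its estimate of -0.34 ± 0.33 did not pass (adjusted p = 0.552). Sesn2, which restrains mTORC1 when leucine is scarce, had 89.1 and 55.6 CPM in knockout ESCs, against 74.3 and 73.4 CPM in control ESCs. Its knockout libraries lay on either side of the controls, at an estimate of -0.03 ± 0.17 (adjusted p = 0.939). Without knockout ESC replicate 1 the Sesn2 estimate was -0.42, and without replicate 2 it was 0.27. Such a fit holds a single knockout ESC library, and so no spread within that group.

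Among the serine and glycine enzymes, no gene passed edgeR's test, and DESeq2 called Shmt2. Shmt2, the mitochondrial enzyme that converts serine to glycine, had 146.9 and 101.2 CPM in knockout ESCs, against 169.9 and 167.8 CPM in control ESCs. Both knockout libraries were lower than the controls and far from each other, and the log2 fold change of -0.45 ± 0.14 did not pass (edgeR adjusted p = 0.0684). It was -0.44 at an adjusted p of 0.0292 in DESeq2 and of 0.00143 in edgeR without the filter on low counts. The Shmt2 estimate was -0.30 with the GC trend removed (edgeR adjusted p = 0.00844), -0.75 without knockout ESC replicate 1 and -0.20 without replicate 2. Without replicate 1, the only knockout ESC library left was the library with the GC trend. Shmt2 shares 32 exonic bases with Ndufa4l2 on the opposite strand, which had 37 to 239 counts per library. Psat1, the aminotransferase of serine synthesis, had 195.4 and 227.0 CPM in knockout ESCs, against 246.1 and 245.4 CPM in control ESCs. Both knockout libraries were lower, and the estimate of -0.22 ± 0.09 did not pass (adjusted p = 0.154). The Psat1 estimate was -0.24 with the GC trend removed (edgeR adjusted p = 0.0349) and -0.33 without knockout ESC replicate 2. Phgdh had 136.8 and 114.0 CPM in knockout ESCs, against 137.0 and 135.9 CPM in control ESCs, and its groups overlapped (log2 fold change -0.12 ± 0.10, adjusted p = 0.489). Without knockout ESC replicate 1 the Phgdh estimate was -0.27. Asns had 247.6 and 270.1 CPM in knockout ESCs, against 240.0 and 234.7 CPM in control ESCs. Both knockout libraries were above the controls, and the estimate of 0.13 ± 0.10 did not pass (adjusted p = 0.463).

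The difference between the 2 knockout ESC libraries ran with GC content among the 10 genes. Replicate 2 was lower than replicate 1 by a log2 difference of -0.68 for Sesn2, -0.60 for Trib3, -0.57 for Chac1 and -0.54 for Shmt2, whose longest transcripts have GC contents of 58.7%, 58.2%, 57.4% and 57.4%. It was higher by 0.22 for Psat1, 0.13 for Ddit3 and 0.12 for Asns, at GC contents of 48.4%, 45.6% and 47.7%. In control ESCs the differences between replicates of all 10 genes lay between -0.15 and 0.21. The share of the GC trend in the knockout estimates was not tested beyond removing it.

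**Figure D2:**
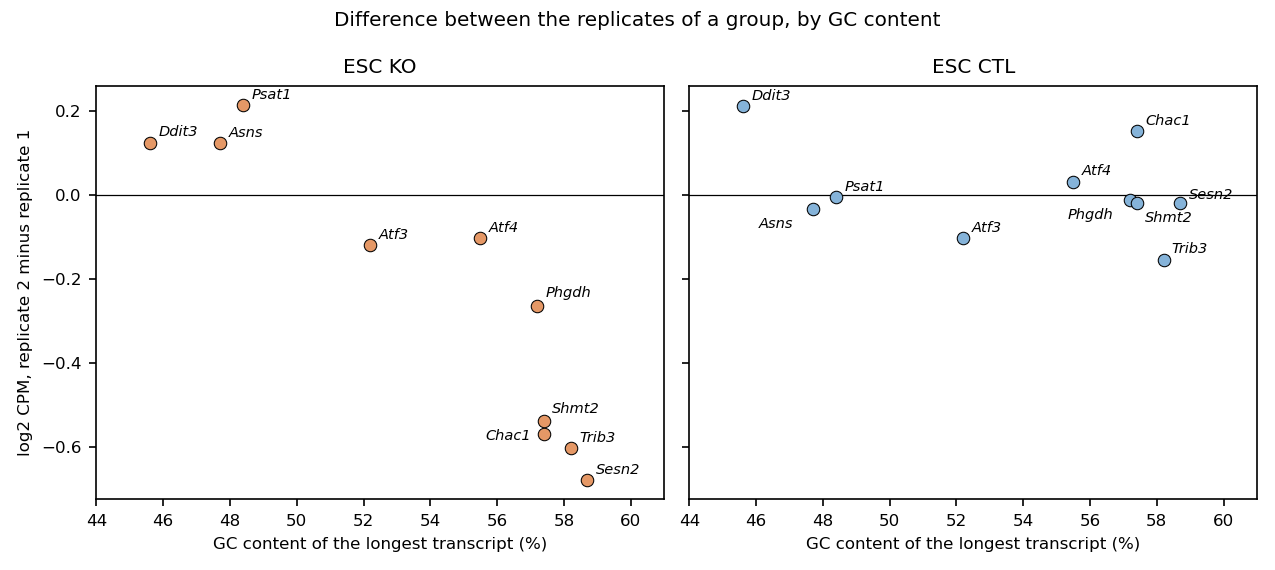
Log2 CPM of replicate 2 minus replicate 1 (vertical axis) against GC content of the longest transcript in % (horizontal axis) for each of the 10 genes, in knockout ESCs on the left and control ESCs on the right; each point is a gene. In knockout ESCs the points run down with GC content to -0.68 for Sesn2, while in control ESCs they stay between -0.15 and 0.21.

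In day 3 EBs the knockout had higher Atf3 and higher Asns RNA, and the other 8 genes did not pass. The count of 2 called higher compares with 6.8% of all tested genes called, 4.75% higher and 2.04% lower. The median log2 fold change of the 10 genes was 0.08, against 0.00 over all tested genes.

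Atf3 had 31.9 and 45.1 CPM in knockout EBs, against 15.9 and 20.6 CPM in control EBs. Both knockout libraries lay above both controls, with the replicates of each genotype further apart than in ESCs (log2 fold change 1.08 ± 0.20, edgeR adjusted p = 0.00906). The Atf3 call did not hold without control EB replicate 1 (log2 fold change 0.90, adjusted p = 0.15) and without knockout EB replicate 2 (log2 fold change 0.81, adjusted p = 0.0874). Asns had 151.1 and 136.4 CPM in knockout EBs, against 102.2 and 89.0 CPM in control EBs. The groups did not overlap, and the log2 fold change was 0.59 ± 0.10 (edgeR adjusted p = 0.00709). The Asns call was lost without control EB replicate 2 (log2 fold change 0.49, adjusted p = 0.0883) and without knockout EB replicate 1, the library with liver marker RNA (log2 fold change 0.52, adjusted p = 0.0742). The knockout EB library without that RNA had 136.4 CPM of Asns, above both control EBs.

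Atf4 had 72.5 and 71.5 CPM in knockout EBs, against 67.0 and 62.3 CPM in control EBs, with an estimate of 0.15 ± 0.09 that did not pass (adjusted p = 0.393). Its knockout libraries were thus both above the controls in EBs and both below them in ESCs. Ddit3 had 9.26 and 8.45 CPM in knockout EBs, against 8.55 and 6.90 CPM in control EBs, and Trib3 had 12.1 and 9.51 CPM in knockout EBs, against 7.43 and 10.2 CPM in control EBs. Both genes overlapped between genotypes, with estimates of 0.19 ± 0.21 for Ddit3 (adjusted p = 0.649) and 0.30 ± 0.26 for Trib3 (adjusted p = 0.557). Chac1 had 2.94 and 2.97 CPM in knockout EBs, against 3.05 and 2.82 CPM in control EBs, so that all 4 libraries were nearly level (0.01 ± 0.32, adjusted p = 0.994). Sesn2 had 113.0 and 117.3 CPM in knockout EBs, against 127.0 and 125.6 CPM in control EBs. The Sesn2 knockout libraries were the lower ones, at an estimate of -0.13 ± 0.17 that did not pass (adjusted p = 0.71).

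The 3 enzymes of serine and glycine synthesis did not pass in EBs. Phgdh had 164.1 and 168.4 CPM in knockout EBs, against 170.3 and 160.0 CPM in control EBs, and Shmt2 had 175.7 and 168.1 CPM in knockout EBs, against 165.7 and 177.6 CPM in control EBs. Both overlapped, with log2 fold changes of 0.01 ± 0.10 for Phgdh (adjusted p = 0.974) and 0.00 ± 0.14 for Shmt2 (adjusted p = 0.995). Psat1 had 160.3 and 151.6 CPM in knockout EBs, against 166.1 and 166.3 CPM in control EBs, and its estimate of -0.09 ± 0.09 did not pass (adjusted p = 0.632). An estimate with an SE of 0.10 on the log2 scale leaves room for small differences, and a p that missed the threshold does not show equal levels.

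**Figure D3:**
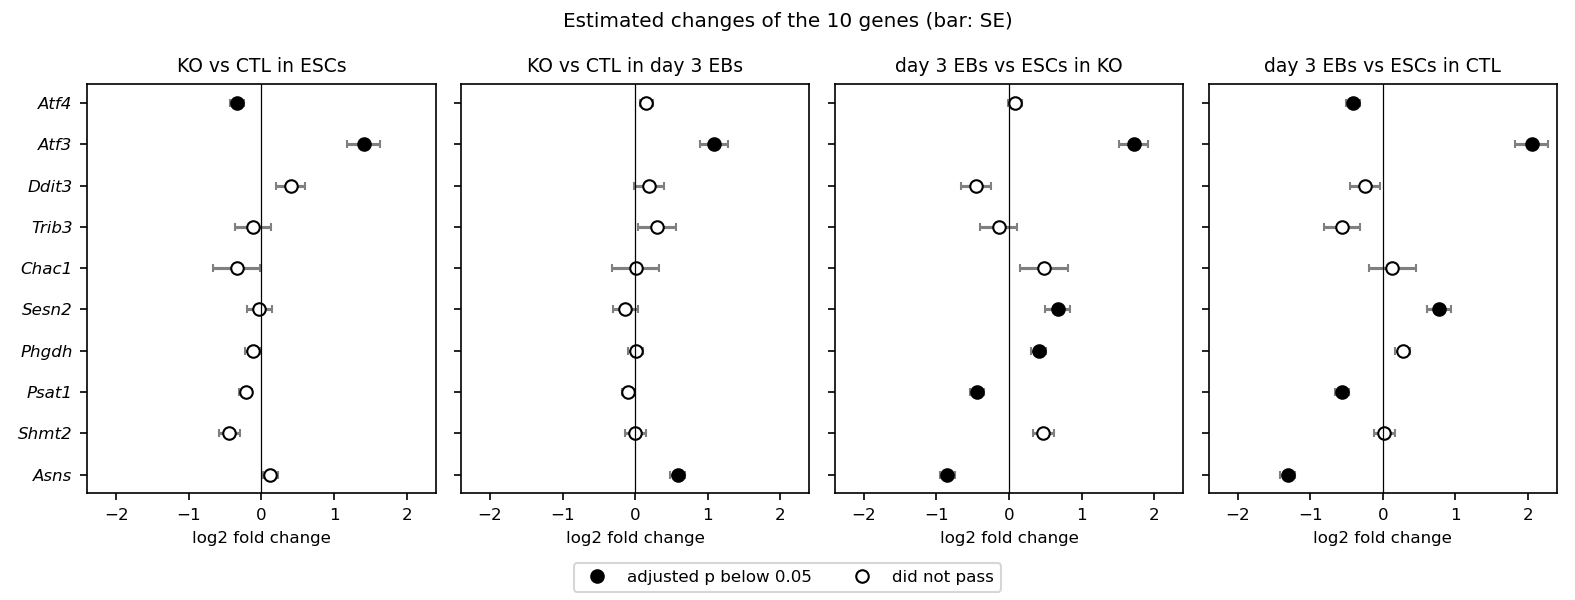
Log2 fold change (horizontal axis, bars are SE) of each of the 10 genes in 4 comparisons, the knockout effect in ESCs and in EBs and the change between ESCs and day 3 EBs in knockout and in control cells; filled circles passed an adjusted p below 0.05. Atf3 is filled and to the right in all 4 panels, and Asns is filled to the left in both comparisons of EBs with ESCs.

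Between ESCs and day 3 EBs, Asns and Psat1 RNA fell and Atf3 and Sesn2 RNA rose in both genotypes. In knockout cells, 3 of the 10 genes were called higher and 2 lower in EBs, where 15.3% of all tested genes were called, 8.23% higher and 7.11% lower. That is 1410 genes higher and 1217 lower, while 1137 were higher and 1567 lower with library totals only. In control cells, 2 were called higher and 3 lower, where 18.2% of all tested genes were called, 8.6% higher and 9.63% lower. The median log2 fold change of the 10 genes was 0.24 in knockout cells and -0.11 in control cells, against 0.00 and -0.01 over all tested genes. The 2 stages also differed in culture form, and the medium of the EBs is unknown here, so that differentiation and culture cannot be told apart.

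Asns had the clearest fall, with no overlap between stages: the log2 fold change was -0.85 ± 0.10 in knockout cells (edgeR adjusted p = 0.000429) and -1.31 ± 0.10 in control cells (adjusted p = 1.78e-05). In knockout cells it averaged 143.7 ± 10.4 CPM in EBs, against 258.9 ± 15.9 CPM in ESCs (SD, n = 2 each). In control cells it averaged 95.6 ± 9.31 CPM in EBs, against 237.3 ± 3.8 CPM in ESCs. Psat1 fell by less, with -0.44 ± 0.09 in knockout cells (adjusted p = 0.0123) and -0.56 ± 0.09 in control cells (adjusted p = 0.00257). Every EB library had less Psat1 RNA than every ESC library. The Psat1 call in knockout cells was lost with either knockout EB library left out, at adjusted p-values up to 0.112.

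Atf3 rose by 1.72 ± 0.20 in knockout cells (edgeR adjusted p = 0.00041) and by 2.05 ± 0.22 in control cells (adjusted p = 0.000186) on the log2 scale. The 4 groups did not overlap, and stood in the order knockout EBs, control EBs, knockout ESCs and control ESCs, with means of 38.5 ± 9.33, 18.2 ± 3.28, 11.7 ± 0.684 and 4.399 ± 0.227 CPM. Sesn2 rose by 0.67 ± 0.17 in knockout cells (adjusted p = 0.0259) and by 0.78 ± 0.17 in control cells (adjusted p = 0.0112), and every EB library was above every ESC library. The Sesn2 call in control cells was lost without any 1 of the 4 control libraries (adjusted p up to 0.13), and that in knockout cells without any 1 library other than knockout ESCs (adjusted p up to 0.111). Without knockout ESC replicate 1 or 2, the Sesn2 estimate in knockout cells was 1.06 or 0.37, each with a single knockout ESC library. Phgdh was called higher in knockout EBs than in knockout ESCs, at 0.41 ± 0.10 (adjusted p = 0.0244), and did not pass in control cells, at 0.28 ± 0.10 (adjusted p = 0.089). The Phgdh call was lost without any 1 library other than knockout ESCs (adjusted p up to 0.141), and with the GC trend removed the estimate was 0.13 (adjusted p = 0.278).

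Atf4 was lower in control EBs than in control ESCs, at -0.41 ± 0.09 (edgeR adjusted p = 0.0133), a call that was lost without any 1 of the 4 control libraries (adjusted p up to 0.129). In knockout cells its estimate was 0.08 ± 0.09 (adjusted p = 0.602). Shmt2 had an estimate of 0.47 ± 0.14 in knockout cells (edgeR adjusted p = 0.0525) and of 0.02 ± 0.14 in control cells (adjusted p = 0.932). In knockout cells it passed in DESeq2 (adjusted p = 0.0173) and in edgeR without the filter on low counts (adjusted p = 0.000503). It did not pass there under 14 of the 17 alternatives, the GC trend removed among them, with estimates between 0.21 and 0.78. Ddit3, Trib3 and Chac1 did not pass in either genotype. Their estimates were -0.45, -0.14 and 0.48 in knockout cells and -0.24, -0.56 and 0.13 in control cells. The Trib3 estimate in control cells passed under 3 of 17 alternatives, the GC trend removed among them, and lay between -0.81 and -0.35.

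Whether the knockout effect differed between EBs and ESCs was tested as its own contrast, the effect in EBs minus the effect in ESCs. None of the 10 genes passed in edgeR's test or in DESeq2, and 2 had an unadjusted p below 0.05, where 1.38% of all tested genes were called, 0.742% higher and 0.642% lower. The estimates with the smallest p were 0.49 ± 0.13 for Atf4 (adjusted p = 0.131) and 0.46 ± 0.14 for Asns (adjusted p = 0.184). Shmt2 had 0.45 ± 0.20 (adjusted p = 0.409) and Atf3 had -0.33 ± 0.30 (adjusted p = 0.728). The presence of an Asns call in EBs and of an Atf4 call in ESCs is thus no shown difference between stages. With the GC trend removed, Asns (edgeR adjusted p = 0.0478) and Shmt2 (edgeR adjusted p = 0.0348) passed. Atf4 and Asns also passed with either knockout ESC library left out, where a single library stood for that group. Over the 16 alternatives the estimate lay between 0.44 and 0.56 for Atf4 and between 0.38 and 0.57 for Asns.

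Of the 4 genes with a TGATGNAA match in the printed windows, Atf3 was called by edgeR in all 4 comparisons of groups and Asns in 3 of them, higher in knockout than in control EBs and lower in EBs than in ESCs of both genotypes. Trib3 and Chac1 were called in none. Of the 6 genes without a match in the window, Atf4, Sesn2, Psat1 and Phgdh were each called by edgeR in at least 1 comparison and Ddit3 and Shmt2 in none. DESeq2 called Shmt2 in 2 of the 4 comparisons. Over all tested genes, edgeR called 14.5% for the knockout in ESCs and 6.8% for the knockout in EBs. Between stages it called 15.3% in knockout cells and 18.2% in control cells. The comparisons share groups, and the share of all genes called in at least 1 of them was not counted. A relation between match and call was not tested.

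The other genes of the pathway were described in 6 lists, which were also chosen with earlier results of these data known. Their counts of calls stand beside the shares over all tested genes, 8.3% higher and 6.2% lower in knockout ESCs and 4.75% higher and 2.04% lower in knockout EBs. Of 18 tested genes for endoplasmic reticulum chaperones and other unfolded protein response proteins, 11 were called higher in knockout ESCs, with a median log2 fold change of 0.36, and the other 7 did not pass. In knockout EBs, 3 of the 18 were called higher, with a median of 0.28. Calr, a calcium-binding chaperone, had 1109 and 1162 CPM in knockout ESCs, against 687.3 and 751.6 CPM in control ESCs, a log2 fold change of 0.66 ± 0.08 (edgeR adjusted p = 0.000575). Hspa5, which encodes the chaperone BiP, had 718.9 and 890.2 CPM in knockout ESCs, against 550.3 and 528.5 CPM in control ESCs (0.58 ± 0.10, adjusted p = 0.00384). Neither gene overlapped between genotypes. Dnajc3, a co-chaperone that inhibits the eIF2 kinase PERK, was called in both stages, at 0.65 ± 0.12 in ESCs (adjusted p = 0.0046) and 0.46 ± 0.12 in EBs (adjusted p = 0.0443). Herpud1, which acts in degradation of misfolded proteins, had 45.9 and 43.3 CPM in knockout EBs, against 29.0 and 27.1 CPM in control EBs (0.67 ± 0.12, adjusted p = 0.00797). Xbp1, a transcription factor of the unfolded protein response, had 166.6 and 166.5 CPM in knockout EBs, against 117.8 and 113.7 CPM in control EBs (0.52 ± 0.10, adjusted p = 0.0107). Both stood above the controls without overlap.

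The count of called chaperone and unfolded protein response genes in ESCs was 1 without either control ESC library, 7 without knockout EB replicate 2 and 5 from the ESC libraries alone. In EBs it was 0 without any 1 of the 4 EB libraries, 13 or 12 without knockout ESC replicate 1 or 2, 10 from the EB libraries alone and 8 with the GC trend removed. The count of all genes called moved in the same direction under each of these settings. For the knockout in ESCs it was 1358 from the ESC libraries alone, against 2483 from all libraries. For the knockout in EBs it was 2720 from the EB libraries alone, against 1164. Like the chaperone and unfolded protein response list, the extraembryonic endoderm and 2-cell-like marker lists were chosen with earlier results known. Both marker lists moved with it. Each was called higher in 10 of 10 genes at both stages, with the summed levels given above. Their part in the result was not tested.

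Of 12 amino acid transporter genes, 2 were called higher and 1 lower in knockout ESCs and 9 did not pass, with a median log2 fold change of -0.02. In knockout EBs 2 were called higher and 10 did not pass, with a median of -0.14. Slc7a6, a transporter of cationic and large neutral amino acids, had 222.4 and 247.1 CPM in knockout ESCs, against 111.6 and 112.2 CPM in control ESCs (log2 fold change 1.07 ± 0.09, edgeR adjusted p = 4.65e-05). In EBs it had 154.8 and 155.9 CPM in the knockout, against 116.8 and 121.8 CPM in the control (0.38 ± 0.09, adjusted p = 0.0305). Slc7a6 was thus higher in every knockout library than in every control library. Slc7a1, a cationic amino acid transporter, had 157.7 and 136.3 CPM in knockout ESCs, against 83.7 and 94.2 CPM in control ESCs (0.72 ± 0.11, adjusted p = 0.00128). In EBs it had 93.3 and 91.1 CPM in the knockout, against 61.7 and 57.6 CPM in the control (0.63 ± 0.11, adjusted p = 0.00705). Slc7a3, another cationic amino acid transporter, moved the other way in ESCs, with 66.0 and 80.4 CPM in the knockout, against 121.0 and 112.3 CPM in the control (-0.67 ± 0.11, adjusted p = 0.0022). The 3 ESC calls held under all 17 alternatives. The Slc7a1 call in EBs was lost without either control EB library or without knockout EB replicate 1. The Slc7a6 call in EBs was lost without any 1 EB library and without either control ESC library.

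Of 15 tested genes among the other partners and targets of ATF4, 1 was called higher and 1 lower in knockout ESCs, with a median log2 fold change of 0.04, near the shares over all tested genes. In knockout EBs 2 were called higher, with a median of 0.27. Vldlr, a lipoprotein receptor, was the higher one in ESCs (8.38 ± 0.422 CPM in knockout ESCs, against 4.04 ± 1.54 CPM in control ESCs, log2 fold change 1.07 ± 0.28, adjusted p = 0.0267). Sqstm1, which encodes the autophagy receptor p62, was the lower one (239.7 ± 28.6 CPM in knockout ESCs, against 308.6 ± 12.8 CPM in control ESCs, -0.37 ± 0.10, adjusted p = 0.0285). In EBs, Map1lc3b, which encodes the autophagosome protein LC3B, was called higher (0.44 ± 0.09, adjusted p = 0.0164). These 3 calls were each lost with at least 3 libraries left out in turn, at adjusted p-values up to 0.253 for Vldlr, 0.243 for Sqstm1 and 0.194 for Map1lc3b. Cth, the enzyme that makes cysteine from cystathionine, had 37.1 and 29.1 CPM in knockout EBs, against 19.8 and 16.2 CPM in control EBs (0.88 ± 0.21, adjusted p = 0.0305). The Cth call was lost without either control ESC library, either control EB library or knockout EB replicate 1, the library with liver marker RNA. Its log2 fold change lay between 0.70 and 1.04 over the 17 alternatives. Knockout EB replicate 2 had 29.1 CPM of Cth, above both control EBs. The part of liver RNA in the Cth estimate was not tested.

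The other enzymes of serine, glycine, proline and folate metabolism were mostly uncalled. In ESCs, Gcsh of the glycine cleavage system was called higher (0.28, adjusted p = 0.0469), in a list of 18 tested genes. In EBs, Mthfd1l, a mitochondrial folate enzyme, was called lower (-0.40, adjusted p = 0.0388), again of 18. Of 20 cytosolic aminoacyl-tRNA synthetase genes, Wars alone was called in ESCs, higher in the knockout (0.34, adjusted p = 0.0273). Each of these 3 calls was lost with at least 6 libraries left out in turn, at adjusted p-values up to 0.265 for Gcsh, 0.307 for Mthfd1l and 0.205 for Wars. In EBs 0 of the 20 were called by edgeR or by DESeq2, and 0 had an unadjusted p below 0.05.

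Of 14 genes for eIF2 kinases, eIF2, its exchange factor and its phosphatases, Impact, which encodes an inhibitor of the eIF2 kinase GCN2, was the one called at both stages. It had 103.2 and 133.3 CPM in knockout ESCs, against 198.4 and 194.3 CPM in control ESCs (log2 fold change -0.73 ± 0.11, edgeR adjusted p = 0.00183). In EBs it had 156.0 and 159.0 CPM in the knockout, against 245.2 and 240.1 CPM in the control (-0.62 ± 0.11, adjusted p = 0.00933). Impact was lower in every knockout library than in every control library. Its ESC call held under all 17 alternatives, and its EB call was lost without either control EB library or without knockout EB replicate 1, at adjusted p-values up to 0.124.

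**Figure D4:**
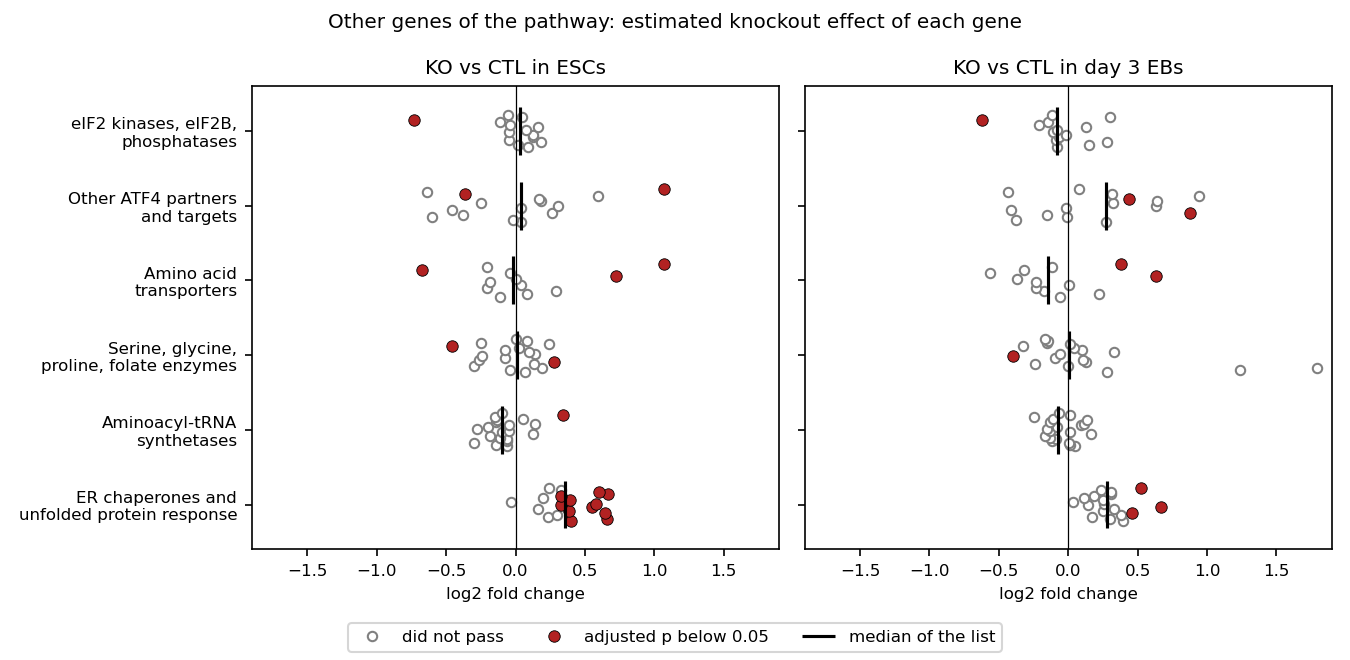
Log2 fold change of knockout against control (horizontal axis) for each tested gene of the 6 pathway lists, in ESCs on the left and day 3 EBs on the right; filled points passed an adjusted p below 0.05 and black bars are list medians. The chaperone and unfolded protein response list lies to the right in both panels, with medians of 0.36 and 0.28, and Impact is the filled point on the left of the list of eIF2 kinases and eIF2 genes.

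Likeness over the 8 libraries was taken as the Pearson r of log2 CPM, among 10662 protein-coding genes. The genes that followed Trib3 most closely were Klhl26 (Pearson r = 0.95), Clip4 (0.945), Zfp511 (0.925), Sun2 (0.922) and Ap1g2 (0.919). For Phgdh they were Mark2 (0.991), Zc3h4 (0.989), Arhgef18 (0.988), Kdm6b (0.986) and Farp1 (0.986), with GC contents from 55.0% to 59.6% beside 57.2% for Phgdh. The 8 points share 4 groups and the GC trend of 1 library, and the values are a description of these libraries.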

How the data were processed

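RNA from 8 poly(A)-selected libraries was sequenced, and the deposited table holds raw whole-number counts per gene, not normalized, per the file headers. Per the submitters' processing notes, the tools were HISAT2, featureCounts and DESeq2, with build mm10. The sources used here give no versions and no strand setting, and do not say how reads matching several genes were counted. The table's gene length was used to express CPM per kilobase. Library totals, 12119763 to 16228426 counts, set the counting error.

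GENCODE M21 gave a symbol for 55141 of 55401 IDs, and 23376 had 0 counts everywhere. edgeR 4.0.16 (R 4.3.3) filtered low counts with filterByExpr and scaled by TMM. Its quasi-likelihood model held a mean for each of the 4 groups over all 8 libraries (biological coefficient of variation 0.132). Benjamini-Hochberg adjustment covered all 17125 genes. An SE is the log2 fold change divided by the square root of its F statistic. A call needs an adjusted p below 0.05. CPM use TMM-scaled library totals.

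The 10 genes and all lists were chosen with earlier results of these data known. Named pathway genes were, per list, knockout comparison and direction, up to 3 with the smallest adjusted p below 0.05 and at least 5 CPM in the higher group. A gene that met this rule is not reported here. The genes named as following Trib3 and Phgdh were the 5 protein-coding genes with the highest Pearson r and a mean of at least 5 CPM. GC content came from the longest transcript in GENCODE M21. Promoters came from RefSeq, build GRCm38.p6. Protein sequences were not used here. The fit was tested on simulated data. Alternatives were the replicate number as a block, library totals only, median-of-ratios factors, a filter at a mean of 1 CPM, no filter, a spline on GC content with 5 degrees of freedom, both together, DESeq2 1.42.0, the compared groups only, a fold change of at least 2 and each library left out. Counts for the pathway lists under these were added after seeing the data.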

Additional observations from a re-analysis of the deposited data

Results flagged for a closer look

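The knockout effect differed between EBs and ESCs by a direct test for 2 named genes. Sqstm1 differed by 0.68 ± 0.13 on the log2 scale (EB effect minus ESC effect, edgeR adjusted p = 0.0393), with 0.31 in EBs (adjusted p = 0.0806) and -0.37 in ESCs (adjusted p = 0.0285). Slc7a6 differed by -0.69 ± 0.13 (adjusted p = 0.0296), with 0.38 in EBs and 1.07 in ESCs.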

How the results depend on the processing

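Of 50 results for the 10 genes, tested under up to 17 alternatives, 840 values were obtained. Of these, 727 kept direction and side of the threshold, 46 lost and 29 gained a call without a change of sign, and 38 changed sign. Of the sign changes, 0 were for a gene called in the fit reported above. They include values that passed: Shmt2 between stages in control cells with the GC trend removed (edgeR adjusted p = 0.0487), and Sesn2 in ESCs without knockout replicate 2. The cause of a change was not tested.

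The count of the 10 genes called in knockout ESCs was 2, and 1 with library totals only, a mean of at least 1 CPM, the compared groups only or a fold change of at least 2, and 0 to 5 with a library left out. In knockout EBs it was 2, then 1 at a fold change of at least 2 and 1 to 2 with a library left out. Between stages it was 5 in knockout cells, with 2 from the compared groups only, 1 at a fold change of at least 2 and 2 to 6 with a library left out. In control cells it was 5, with 2 at a fold change of at least 2 and 3 to 6 with a library left out. For the difference between stages it was 0, with 2 once the GC trend was removed and 0 to 3 with a library left out. Over all genes, 2483 were called in knockout ESCs (3810 with the GC trend removed, 1358 from the compared groups only, 1083 at a fold change of at least 2, 756 to 4729 with a library left out). In knockout EBs 1164 were called (2094 without the filter, 2483 with the GC trend removed, 2720, 554 and 236 to 3127 under the same settings). Between stages 2627 were called in knockout cells (818, 990 and 843 to 5485 for the last 3 settings) and 3121 in control cells (5571, 1304 and 830 to 5512). For the difference, 237 were called (704 without the filter, 735 with the GC trend removed, 392 by DESeq2, 141 at a fold change of at least 2, 0 to 2040 with a library left out).

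Correlations of replicate differences between groups ran from -0.089 to 0.023, and so showed no pairing by replicate number. They cannot show that the libraries were unpaired, since the origin of the replicates is not given. With the GC trend removed, 3 of the 10 genes were called in knockout ESCs: Atf3, Psat1 and Shmt2, without Atf4. The replicate block left 1 of the 10 genes called in knockout ESCs. Together with GC removal it gave 2330 genes in knockout EBs, 692 genes for the difference, and 2 of the 10 for the difference.

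Log2 fold changes that changed sign were as follows. In knockout ESCs, Trib3 was 0.034 with the GC trend removed and 0.034 with block and GC removal, and -0.46 to 0.15 with a library left out. Sesn2 was 9e-04 with library totals only, 0.0051 at a mean of at least 1 CPM, 0.13 with GC removal, 0.126 with block and GC removal and -0.42 to 0.27 with a library left out. Phgdh was 0.035 with GC removal, with or without the block, and -0.27 to 5e-04 with a library left out. In knockout EBs, Chac1 was -0.0045 with median-of-ratios factors, -0.0042 by DESeq2 and -0.046 to 0.060 with a library left out. Sesn2 was 0.0036 with GC removal and 0.0042 with the block added. Phgdh was -0.0016 with median-of-ratios factors or DESeq2 and -0.034 to 0.051 with a library left out. Shmt2 was -0.0083 with median-of-ratios factors or DESeq2, -9e-04 without the filter, -8e-04 with the replicate block and -0.051 to 0.054 with a library left out. For EBs against ESCs in control cells, Chac1 was -0.098 with GC removal and -0.10 with the block added. Shmt2 was -0.032 with library totals only, -0.21 with GC removal, with or without the block, and -0.033 to 0.073 with a library left out. In knockout cells, Atf4 was -0.14 with GC removal, with or without the block, and Trib3 was -0.42 to 0.21 with a library left out. For the difference between stages, Sesn2 was -0.40 to 0.29 with a library left out.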
